A study of Homo sapiens with 4 samples.

Results

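This account covers 45 genes of the lysosome and of autophagy, of 58735 genes listed for each library, in 769-P, an established human line of renal clear cell carcinoma. The members were chosen by name: 15 lysosomal hydrolases, 3 lumenal activators or carriers, 5 lysosomal membrane proteins, 5 transcription factors and Rag GTPases, and 17 genes of autophagosome formation. All 45 names matched a single listed gene. Over the 4 libraries 44 reached an average of 1 FPKM or more, the exception being CTSH. FPKM is fragments counted on a gene, divided by its length in kilobases and by a library size, which here differed from the read total. RNA sequencing compared 2 untreated control libraries with 2 libraries from cells given doxycycline at 1 µg/ml for 4 days. Every library came from cells stably transfected with a doxycycline-inducible short hairpin RNA against USP35, a ubiquitin-specific protease, and grown with puromycin. The background is described as otherwise wild type, in a carcinoma line whose own mutations were not examined here. Cells with doxycycline but no hairpin were not analysed here, so effects of the drug and of the hairpin cannot be told apart. Whether replicates were separate cultures is not in the labels; the p-values therefore reflect only how far these libraries vary, which may be technical.

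Lysosomes break down proteins, sugar chains and lipids in an acidic lumen, with hydrolases delivered from the Golgi and a limiting membrane rich in heavily glycosylated proteins. Macroautophagy wraps cytoplasm in a double membrane, and the finished autophagosome fuses with a lysosome. The ULK1 kinase complex and the class III phosphatidylinositol 3-kinase complex start the membrane, WIPI proteins bind the lipid it makes, and a ubiquitin-like conjugation system attaches ATG8 proteins (LC3 and the GABARAP proteins) to it. TFEB, TFE3 and MITF are related transcription factors that bind CACGTG, the E-box core, in promoters of many of these genes, and are held in the cytoplasm when mTORC1 is active at the lysosome through the Rag GTPases. MITF-family and autophagy genes have been studied in kidney tumours, where TFE3 and TFEB can be rearranged.

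The hairpin's target was lower in both doxycycline libraries. USP35 stood at 3.31 and 4.19 FPKM without doxycycline and 2.11 and 2.54 FPKM with it, with group means in a ratio of 0.620. The limma adjusted p of USP35 was 0.256, so it missed the threshold of 0.05. The libraries held between 16319640 and 18764546 reads. The doxycycline libraries also differed from each other: the mitochondrial genome gave 8.21% and 8.50% of control reads, 7.44% of those in doxycycline replicate 1 and 14.6% of those in replicate 2 (95% Wilson half-widths of at most 0.016 percentage points, counting error only), and the median log2 difference of 13 interferon response genes from the control mean was 4.78 in replicate 1 and 0.40 in replicate 2. The part of these library differences in the members' values was not tested, and values for each library are given for every member. Of 9 renal epithelial and carcinoma markers, 8 were above the minimum, PAX8 and PAX2 among them, while CA9 was below 0.04 FPKM in every library. Macrophage and leukocyte (7), fibroblast (5) and endothelial (4) markers had 0 genes above the minimum. The macrophage lysosomal protein CD68 was at or below 0.05 FPKM in every library.

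Among the 45 genes the largest differences were higher levels of some autophagosome genes and of a few lysosomal lipid- and glycogen-degrading proteins with doxycycline, and 0 of 44 passed the test across all genes. WIPI1, a phosphoinositide-binding protein of the growing autophagosome, averaged 3.20 ± 0.564 FPKM in the control and 8.88 ± 1.33 FPKM in the doxycycline libraries (SD, n = 2 each). GABARAPL1, an ATG8 protein, averaged 12.5 ± 2.19 and 29.97 ± 7.94 FPKM in the same order, and ASAH1, acid ceramidase, 8.37 ± 0.0922 and 18.5 ± 6.18 FPKM. PSAP, the precursor of the saposins that help degrade sphingolipids, was the most abundant member and averaged 648 ± 38.7 FPKM in the control and 1181 ± 131 FPKM in the doxycycline libraries. The protease CTSZ, a carboxypeptidase, was the member with the largest difference in the other direction, averaging 96.1 ± 14.8 and 59.5 ± 13.8 FPKM. The lowest adjusted p was 0.0682, for WIPI1 (limma, Benjamini-Hochberg adjustment over 12029 genes), which ranked 149 of 12029 by p, and 0% of all genes tested passed at an adjusted p under 0.05. limma-voom on whole reads recovered from the FPKM values also passed 0 of the 44 members, with 121 genes (1.01%) passing under median-of-ratios library sizes and 0 under library totals.

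At an unadjusted limma p under 0.05 there were 12 members of 44 (27.3%), against 18.3% of all genes. They split into 10 higher with doxycycline (22.7%, against 6.47% of all genes) and 2 lower (4.55%, against 11.9%). Those higher were GAA, ASAH1, LIPA, PSAP, RRAGC, ATG13, ATG14, WIPI1, MAP1LC3B and GABARAPL1, and those lower were CTSZ and GUSB. In 21 members the lower doxycycline library exceeded the higher control (47.7%, against 24.3% of all genes), and in 9 the reverse held (20.5%, against 28.9%), together 30 of 44 against 53.2% of all genes. The libraries overlapped for 14. The median log2 difference of the 44, taken as doxycycline minus control after the transform log2(FPKM + 1), was 0.13 (replicate 1 of doxycycline alone 0.20, replicate 2 alone 0.10), beside -0.026 over all genes kept. The doxycycline libraries lay on opposite sides of the control mean for 12 of the 44 (27.3%, against 31.3% of all genes). The number past the adjusted threshold was 15 without doxycycline replicate 1 (34.1%, against 32.8% of all genes), 7 without replicate 2 (15.9%, against 13.3%) and 0 without either control (0% of all genes), in fits where the lone library of a group is assumed to vary like the others. Without doxycycline replicate 1 the log2 difference was 0.69 for GAA, 1.35 for ASAH1, 0.75 for PSAP, 1.37 for WIPI1, 0.72 for MAP1LC3B and 1.44 for GABARAPL1. Without replicate 2 it was, in the same order, 0.91, 0.69, 0.98, 1.10, 0.97 and 0.91. For CTSZ, lower with doxycycline, it was -0.93 and -0.46. These members were picked after their values were seen, and the share of all genes with such differences was not counted.

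**Figure D1:**
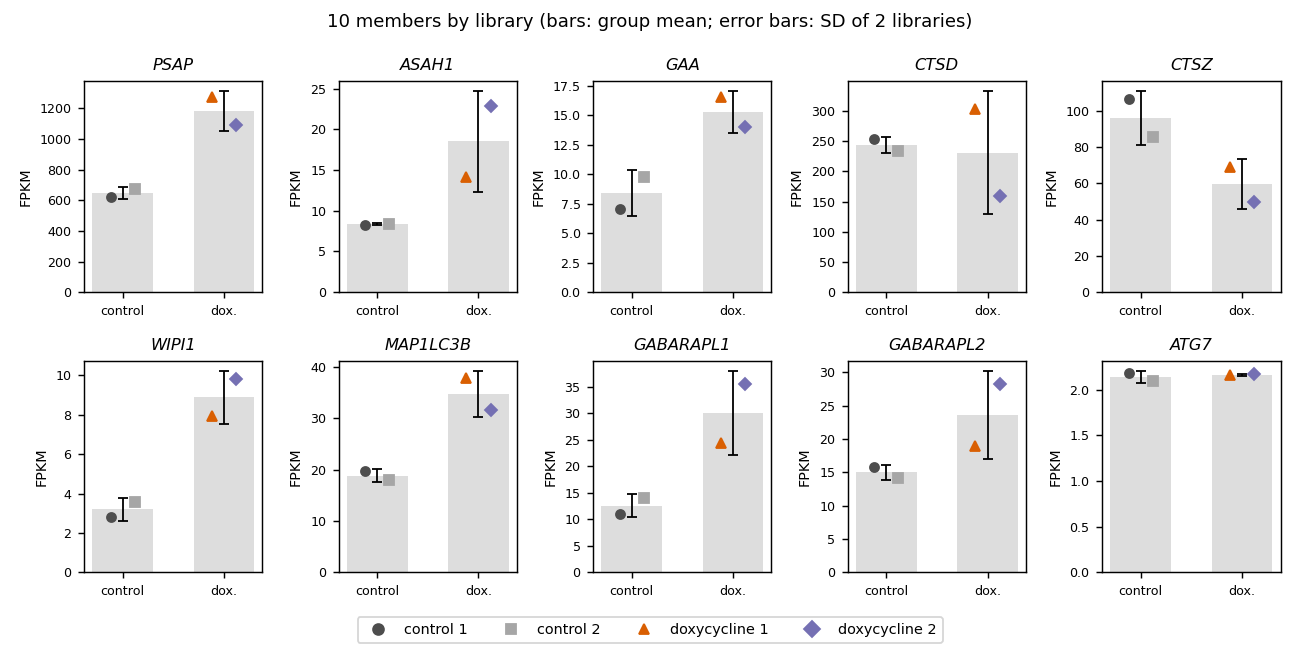
Levels of 10 members, chosen after their values were seen, in FPKM on linear axes from 0; points are libraries, bars are group means and error bars are SD of 2 libraries. For WIPI1 the doxycycline libraries sat at 7.94 and 9.82 FPKM against 2.80 and 3.60 FPKM in the controls, while for CTSD they sat on either side of the controls and for ATG7 all 4 libraries lay between 2.09 and 2.18 FPKM.

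Sequences of the DNA just before the transcription start are shown for 6 members: 3 of the lysosomal genes whose promoters carry repeated E-box cores, and the 3 autophagosome genes with the largest differences, which carry no CACGTG there. They are from RefSeq (GRCh38.p14), 250 bases each, 5′ to 3′ on the strand of the gene, with CACGTG and TGACGTCA (the cyclic AMP response element) in capitals. Both motifs read the same on either strand. GAA (chr17:80101331-80101580, plus strand) and MCOLN1 (chr19:7522374-7522623, plus strand) hold the full 10-letter form GTCACGTGAC, known as the TFEB (CLEAR) site. LAMP1 (chr13:113296989-113297238, plus strand) holds 6 cores, the last of which runs across the start, so that only its C is shown. WIPI1 (chr17:68457497-68457746, minus strand), MAP1LC3B (chr16:87392086-87392335, plus strand) and GABARAPL1 (chr12:10212627-10212876, plus strand) follow. The RefSeq start used for MAP1LC3B lies inside the gene span of the deposited files.
GAA: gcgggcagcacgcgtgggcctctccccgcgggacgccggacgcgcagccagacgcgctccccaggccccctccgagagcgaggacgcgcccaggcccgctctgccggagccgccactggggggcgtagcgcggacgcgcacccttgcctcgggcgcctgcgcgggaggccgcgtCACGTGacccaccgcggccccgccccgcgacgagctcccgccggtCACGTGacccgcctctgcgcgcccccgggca
MCOLN1: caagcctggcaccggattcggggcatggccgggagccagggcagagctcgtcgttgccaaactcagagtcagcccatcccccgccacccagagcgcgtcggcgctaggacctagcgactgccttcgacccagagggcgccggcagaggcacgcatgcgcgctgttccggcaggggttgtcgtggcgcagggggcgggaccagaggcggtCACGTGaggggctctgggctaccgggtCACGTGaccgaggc
LAMP1: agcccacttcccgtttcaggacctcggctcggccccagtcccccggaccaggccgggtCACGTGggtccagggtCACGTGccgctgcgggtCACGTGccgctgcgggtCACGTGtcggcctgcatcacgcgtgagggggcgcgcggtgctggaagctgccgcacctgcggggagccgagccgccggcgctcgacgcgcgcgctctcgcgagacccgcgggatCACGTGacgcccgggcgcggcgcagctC
WIPI1: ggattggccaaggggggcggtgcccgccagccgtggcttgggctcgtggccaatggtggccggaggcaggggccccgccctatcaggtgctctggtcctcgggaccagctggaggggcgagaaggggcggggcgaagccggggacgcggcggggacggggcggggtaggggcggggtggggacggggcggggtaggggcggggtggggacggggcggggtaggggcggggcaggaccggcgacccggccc
MAP1LC3B: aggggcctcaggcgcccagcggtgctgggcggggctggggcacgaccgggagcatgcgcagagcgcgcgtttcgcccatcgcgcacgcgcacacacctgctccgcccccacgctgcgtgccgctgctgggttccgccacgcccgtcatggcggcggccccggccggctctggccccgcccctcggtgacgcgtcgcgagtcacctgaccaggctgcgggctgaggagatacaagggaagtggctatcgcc
GABARAPL1: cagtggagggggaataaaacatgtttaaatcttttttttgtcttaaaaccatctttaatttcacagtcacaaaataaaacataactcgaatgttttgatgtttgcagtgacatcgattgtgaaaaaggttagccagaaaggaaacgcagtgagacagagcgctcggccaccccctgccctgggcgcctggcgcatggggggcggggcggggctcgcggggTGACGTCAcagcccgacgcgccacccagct

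Of the matched windows 5 held more than 1 core: GAA (2 copies), MCOLN1 (2), LAMP1 (6), CTSA (2) and ATG3 (2), and the log2 differences of these genes ranged widely. GAA had a log2 difference of 0.80, MCOLN1 of 0.0079 and LAMP1 of -0.17, the last of which became 0.033 under quantile normalization. CTSA had -0.10 and ATG3 -0.0014, the latter 0.066 under quantile normalization. Promoter windows, 250 bases before to 50 after the start, matched 38 of the 45 members; those not matched were ASAH1, CTSB, HEXA, LAMP2, PSAP, RRAGD and UVRAG. With any listed start counted, CACGTG stood in 10 of the 38 (ATG14, ATG3, CD63, CTSA, CTSD, GAA, LAMP1, MCOLN1, NEU1 and RRAGC), or 26.3%, against 8.77% of 27305 genes. The longer TCACGTGA, which contains that core, stood in 5 (ATG3, CTSA, GAA, LAMP1 and MCOLN1), or 13.2% against 1.18%, and GTCACGTGAC in GAA (2 copies) and MCOLN1 (1 copy) alone, against 0.421% of genes. The median log2 difference was 0.0033 for the 10 members with the core and 0.14 for the 27 kept members without it. TGACGTCA, a motif searched for after the GABARAPL1 sequence was seen, stood in 2 of 38, GABARAPL1 and MITF, against 2.25% of genes. These are matches of letters within the window and say nothing of binding.

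In untreated cells the 12 most abundant members were lumenal or membrane proteins of the lysosome, and below them lysosomal and autophagosome genes were mixed. The order of mean FPKM in the controls was led by PSAP (648), CTSD (244), CD63 (165), GRN (112), CTSZ (96.1), LAMP1 (62.4), CTSB (39.8), CTSA (33.3) and CTSL (26.8), and for each of these 9 both controls lay above both controls of the next gene. From LAMP2 to TFE3 neighbours in the order overlapped (LAMP2, NPC2, NPC1, MAP1LC3B and TFE3, with means between 18.6 and 22.9 FPKM). The highest autophagosome gene was MAP1LC3B at 18.8 FPKM, ranked 13 of 45. The lowest members were TFEB at 1.81 FPKM, GABARAP at 1.13 FPKM and CTSH, cathepsin H, at 0.549 FPKM. FPKM here divides by the length of all annotated exons of a gene joined, which ranges from 2038 bases for CTSZ to 15378 bases for ASAH1, so a gene with many long annotated isoforms reads low on this scale. Exons of other genes cover 55.7% of the exon length of GABARAP, 52.7% of CTSD and 38.8% of ATG9A. How reads in shared exons were assigned is not given in the sources used here, so those levels are uncertain.

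**Figure D2:**
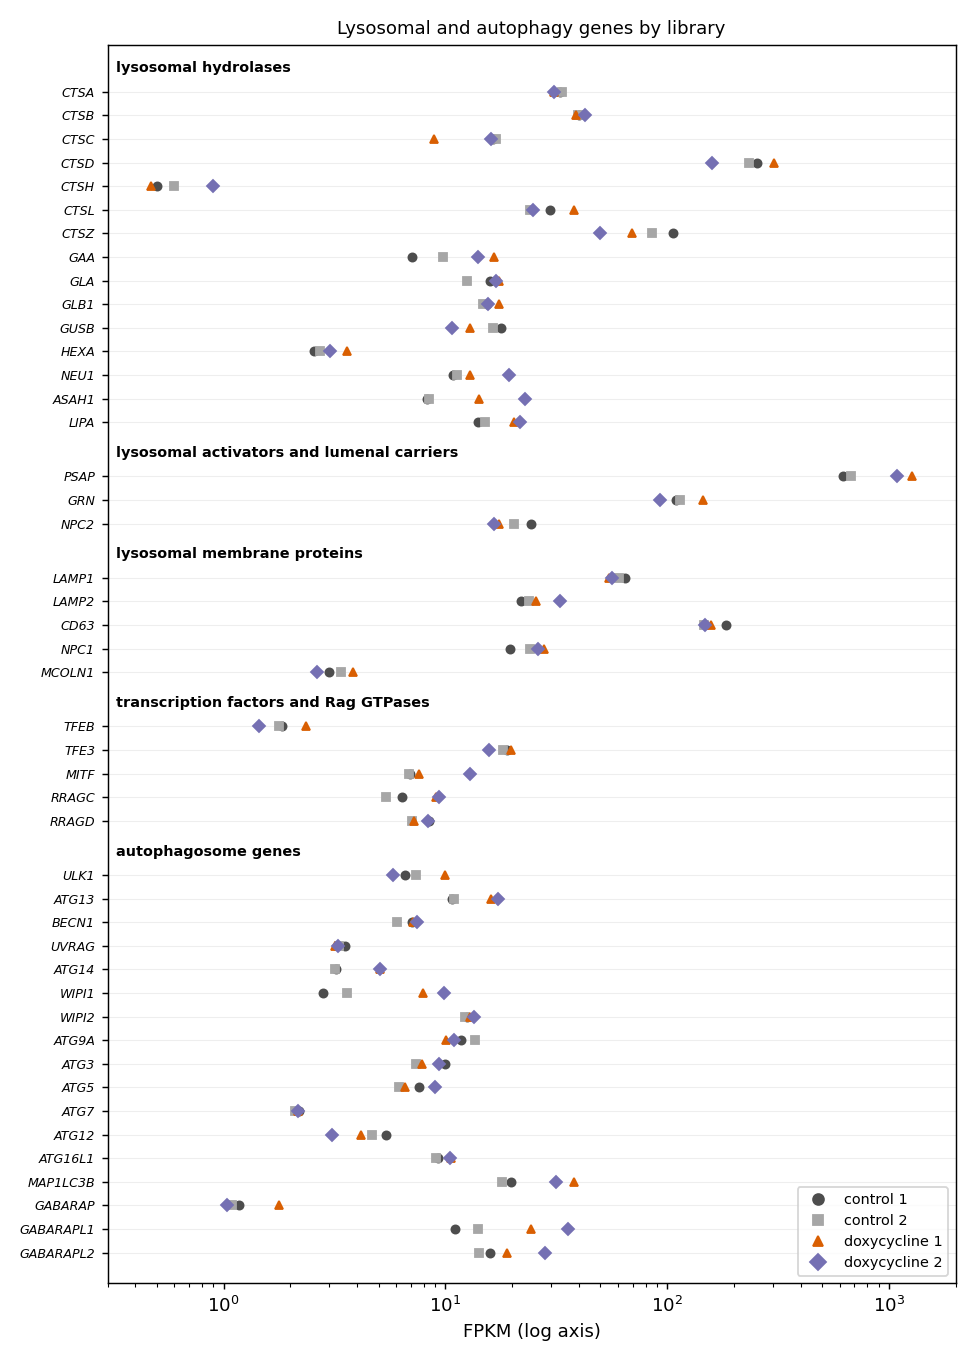
FPKM of all 45 members on a log axis, ordered by role; each symbol is a library. The 4 libraries of most genes lie close together compared with the range over genes, from below 1 FPKM for CTSH to above 1000 FPKM for PSAP with doxycycline.

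The 14 kept hydrolases had a median log2 difference of 0.16 (0.067 without doxycycline replicate 1, 0.25 without replicate 2, 0.071 without control replicate 2 and 0.23 under quantile normalization), and the medians of proteases, glycosidases and lipid hydrolases differed. The proteases had a median of -0.12 over the 6 kept. In 0 of 6 the lower doxycycline library exceeded the higher control, and in 3 the reverse held, beside 24.3% and 28.9% of all genes. CTSZ (GRCh38 chr20:58995185-59007247, minus strand) stood at 107 and 85.6 FPKM in untreated cells against 69.3 and 49.7 FPKM after doxycycline (log2 difference -0.69, SE 0.26, limma adjusted p = 0.252). Both doxycycline libraries lay below both controls, but the libraries within each group were farther apart in FPKM than the nearest libraries of the groups. CTSC, which activates granule serine proteases, stood at 16.3 and 16.9 FPKM without doxycycline and 8.91 and 16.2 FPKM with it, so only doxycycline replicate 1 was far from the controls. CTSD, the main aspartic protease of lysosomes, stood at 253 and 234 FPKM in untreated cells against 303 and 159 FPKM after doxycycline. Replicate 1 was thus above and replicate 2 below both controls, and the log2 difference was 0.32 without replicate 2 and -0.61 without replicate 1. CTSL, a cysteine protease, stood at 29.6 and 24.1 FPKM without doxycycline and 38.1 and 24.7 FPKM with it. For CTSL replicate 1 lay above both controls and replicate 2 between them, and the log2 difference of 0.20 became -0.11 without replicate 1.

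The remaining proteases had small or poorly measured differences. CTSB, an abundant cysteine protease, stood at 40.04 and 39.5 FPKM in untreated cells against 38.9 and 42.6 FPKM after doxycycline, with a 95% interval of the log2 difference from -0.46 to 0.53. CTSA, which also protects neuraminidase and beta-galactosidase, stood at 33.01 and 33.6 FPKM without doxycycline and 30.9 and 31.03 FPKM with it, and exons of other genes cover 28.5% of its length. CTSH, an aminopeptidase below the minimum, stood at 0.503 and 0.594 FPKM in untreated cells against 0.469 and 0.899 FPKM after doxycycline, on 47 to 97 reads per library.

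The glycosidases were mostly higher, with GUSB as the exception, and the median log2 difference was 0.26. In 5 of 6 the lower doxycycline library exceeded the higher control, and in 1 (GUSB) the reverse held. The shares among all genes were 24.3% and 28.9%. GAA (GRCh38 chr17:80101556-80119879, plus strand), which degrades glycogen, stood at 7.05 and 9.77 FPKM without doxycycline and 16.5 and 14.04 FPKM with it (ratio 1.82, log2 difference 0.80, SE 0.22, limma adjusted p = 0.161). The gap between the groups exceeded the gap within either. NEU1, a sialidase, stood at 10.8 and 11.3 FPKM in untreated cells against 12.9 and 19.4 FPKM after doxycycline, and most of its difference of 0.48 lay in replicate 2. GLA, an alpha-galactosidase, stood at 15.8 and 12.5 FPKM without doxycycline and 17.5 and 16.8 FPKM with it. GLB1, a beta-galactosidase, stood at 15.4 and 14.8 FPKM in untreated cells against 17.4 and 15.5 FPKM after doxycycline, and HEXA, a beta-hexosaminidase subunit, at 2.55 and 2.73 FPKM without doxycycline and 3.62 and 3.02 FPKM with it. For these 3 the 95% intervals reached from -0.34 (GLB1) to 0.77 (GLA) and each included 0. GUSB, the beta-glucuronidase, was lower in both doxycycline libraries, at 17.8 and 16.4 FPKM in untreated cells against 12.98 and 10.7 FPKM after doxycycline (ratio 0.694, log2 difference -0.50, SE 0.20, limma adjusted p = 0.263).

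Both lipid hydrolases were higher. ASAH1 (ENSG00000104763, GRCh38 chr8:18055992-18084998, minus strand) stood at 8.30 and 8.43 FPKM without doxycycline and 14.1 and 22.9 FPKM with it, a ratio of 2.21 (log2 difference 1.02, SE 0.26, limma adjusted p = 0.139). Replicate 2 was the higher of the doxycycline libraries. LIPA, acid lipase, stood at 13.99 and 15.1 FPKM in untreated cells against 20.4 and 21.7 FPKM after doxycycline, with both doxycycline libraries close together (0.50, SE 0.19, adjusted p = 0.244). The interferon-induced gene IFIT2 shares 65 bases with LIPA on the other strand and read 1.88 and 2.24 FPKM without the drug, then 114 FPKM in treated replicate 1 and 3.69 FPKM in treated replicate 2. How far reads of IFIT2 entered the LIPA values was not tested.

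Of the lumenal activators and carriers PSAP was higher and NPC2 lower in both doxycycline libraries, and the median of the 3 was 0.054. PSAP (GRCh38 chr10:71816298-71851375, minus strand) stood at 620.3 and 675 FPKM without doxycycline and 1274 and 1089 FPKM with it, on 31877 to 77557 reads, a ratio of 1.82 (log2 difference 0.86, SE 0.26, limma adjusted p = 0.183). Both doxycycline libraries lay well above both controls. NPC2, which hands cholesterol to NPC1, stood at 24.4 and 20.3 FPKM in untreated cells against 17.4 and 16.6 FPKM after doxycycline (-0.37, adjusted p = 0.377). GRN, progranulin, a chaperone of lysosomal enzymes, stood at 109.7 and 115 FPKM without doxycycline and 146 and 93.1 FPKM with it, on either side of the controls. The summed FPKM of all 45 members was 1801 and 1769 in untreated cells and 2546 and 2164 in treated cells. Without PSAP it was 1181 and 1094 against 1272 and 1076, so those sums overlapped. The ratio of PSAP to CTSD, the most abundant hydrolase, was 2.45 and 2.89 in untreated cells and 4.20 and 6.85 after doxycycline.

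The 5 lysosomal membrane proteins had a median log2 difference of 0.0079, which took opposite signs in the doxycycline libraries (0.16 in replicate 1 and -0.14 in replicate 2). It was 0.11 with a minimum of 5 FPKM, which drops MCOLN1, and 0.046 and 0.043 with limma-voom under library totals and median-of-ratios sizes. LAMP2, which also serves chaperone-mediated autophagy, stood at 21.8 and 23.9 FPKM in untreated cells against 25.6 and 33.04 FPKM after doxycycline. NPC1, the cholesterol exporter, stood at 19.6 and 24.03 FPKM without doxycycline and 27.98 and 26.2 FPKM with it. Both were higher in both doxycycline libraries, with 95% intervals of the log2 difference from -0.20 to 0.87 and from -0.20 to 0.81. LAMP1, a major membrane glycoprotein, stood at 64.4 and 60.4 FPKM in untreated cells against 54.7 and 56.2 FPKM after doxycycline. CD63, a tetraspanin, stood at 184 and 146 FPKM without doxycycline and 159 and 148 FPKM with it, and MCOLN1, a calcium channel, at 2.98 and 3.37 FPKM in untreated cells against 3.83 and 2.64 FPKM after doxycycline. For LAMP1 both doxycycline libraries lay below both controls, at a log2 difference of -0.17; quantile normalization turned it to 0.033. For CD63 and MCOLN1 the libraries overlapped, and the difference of CD63, -0.10, became 0.03 under quantile normalization.

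Of the 3 transcription factors MITF, and of the 2 Rag GTPases RRAGC, had both doxycycline libraries above both controls, as did 24.3% of all genes. The median log2 difference of the 5 genes was 0.028, and 0.24 with a minimum of 5 FPKM, which drops TFEB. MITF stood at 6.93 and 6.84 FPKM without doxycycline and 7.60 and 12.9 FPKM with it, so the difference of 0.47 lay mainly in replicate 2 (limma adjusted p = 0.388). TFEB stood at 1.84 and 1.78 FPKM in untreated cells against 2.36 and 1.44 FPKM after doxycycline, and TFE3, the most abundant of the 3, at 18.98 and 18.2 FPKM without doxycycline and 19.9 and 15.7 FPKM with it. For both, replicate 1 was above and replicate 2 below the controls, and the difference of TFE3, -0.067, became 0.025 under quantile normalization. RRAGC stood at 6.34 and 5.41 FPKM in untreated cells against 9.06 and 9.32 FPKM after doxycycline, a ratio of 1.56 (log2 difference 0.57, SE 0.18, limma adjusted p = 0.191). Its partner in function, RRAGD, stood at 8.46 and 7.11 FPKM without doxycycline and 7.23 and 8.38 FPKM with it, a log2 difference of 0.0036 with a 95% interval from -0.46 to 0.47. The genes RRAGC and RRAGD encode interchangeable partners of RagA or RagB, and the difference between their responses was not tested.

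Among the genes that start the autophagosome, ATG13 and ATG14 were higher in both doxycycline libraries by similar amounts. ATG13, the adaptor of the ULK1 kinase, stood at 10.7 and 10.9 FPKM in untreated cells against 16.02 and 17.2 FPKM after doxycycline (log2 difference 0.58, SE 0.18, limma adjusted p = 0.191). ATG14, the subunit that directs the phosphatidylinositol 3-kinase complex to autophagosomes, stood at 3.22 and 3.17 FPKM without doxycycline and 5.08 and 5.08 FPKM with it (0.53, SE 0.17, adjusted p = 0.192), with replicates nearly equal in each group. ULK1 itself stood at 6.59 and 7.36 FPKM in untreated cells against 9.98 and 5.79 FPKM after doxycycline, high in replicate 1 and lower than the controls in replicate 2. BECN1, the core of the lipid kinase complex, stood at 7.09 and 6.05 FPKM without doxycycline and 7.14 and 7.48 FPKM with it, and UVRAG, which takes the place of ATG14 in the endosomal form of that complex, at 3.54 and 3.33 FPKM in untreated cells against 3.17 and 3.29 FPKM after doxycycline. The 95% intervals of the log2 difference ran from -0.30 to 0.58 for BECN1 and from -0.49 to 0.36 for UVRAG.

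Of the proteins that extend the membrane, WIPI1 was higher in both doxycycline libraries, and its relative WIPI2 differed much less, although the difference between the 2 genes was not tested. WIPI1 (ENSG00000070540, GRCh38 chr17:68420948-68457513, minus strand) stood at 2.80 and 3.60 FPKM without doxycycline and 7.94 and 9.82 FPKM with it, on 151 to 612 reads, a ratio of 2.78 (log2 difference 1.24, SE 0.20, limma adjusted p = 0.0682). Both doxycycline libraries were above 2 times the level of either control. WIPI1 passed with a mean of at least 5 FPKM as the filter (limma adjusted p = 0.0375, with 3.77% of all genes passing). Its log2 difference was 1.37 without doxycycline replicate 1 and 1.10 without replicate 2. Over all 13 alternatives its adjusted p lay between 3.03e-04, without doxycycline replicate 1, and 0.761, without control replicate 1. Exons of ARSG, an arylsulfatase gene on the other strand, cover 828 bases of WIPI1, and ARSG itself read 0.316 and 0.401 FPKM without the drug and 1.09 and 1.11 FPKM under it. The part of either gene in the reads of the other was not tested. WIPI2 stood at 12.6 and 12.2 FPKM in untreated cells against 12.97 and 13.5 FPKM after doxycycline, and ATG9A, the lipid scramblase of the vesicles that seed the membrane, at 11.8 and 13.6 FPKM without doxycycline and 10.04 and 10.9 FPKM with it, lower in both doxycycline libraries, with a log2 difference of -0.25 and a 95% interval from -0.71 to 0.21.

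The 5 genes of the conjugation machinery had a median log2 difference of 0.011. In 1 of 5 (ATG16L1) the lower doxycycline library exceeded the higher control, and in 1 (ATG12) the reverse held. Among all genes these shares were 24.3% and 28.9%. ATG7, the activating enzyme, stood at 2.18 and 2.09 FPKM in untreated cells against 2.16 and 2.17 FPKM after doxycycline. ATG3, the conjugating enzyme for ATG8 proteins, stood at 9.97 and 7.37 FPKM without doxycycline and 7.83 and 9.37 FPKM with it, and ATG5, joined to ATG12 in the ligase, at 7.62 and 6.17 FPKM in untreated cells against 6.58 and 8.97 FPKM after doxycycline. For ATG7, ATG3 and ATG5 the libraries overlapped, and the 95% intervals of the log2 difference lay between -0.53 (ATG3) and 0.68 (ATG5). ATG16L1, which places the ligase on the membrane, stood at 9.27 and 9.10 FPKM without doxycycline and 10.6 and 10.5 FPKM with it. ATG12, the ubiquitin-like modifier of ATG5, was the lowest of the autophagosome genes relative to control, at 5.38 and 4.65 FPKM in untreated cells against 4.18 and 3.08 FPKM after doxycycline (-0.38, SE 0.20, limma adjusted p = 0.361).

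The substrates of that machinery, the ATG8 genes, were the group with the largest median among the autophagosome genes, 0.72 (0.65 in replicate 1 and 0.80 in replicate 2). Of these 4 genes 3 lay above both controls in both doxycycline libraries and 0 below, beside 24.3% and 28.9% of all genes. MAP1LC3B, the LC3 protein used as the standard marker of autophagosomes (GRCh38 chr16:87383995-87404779, plus strand), stood at 19.7 and 17.9 FPKM without doxycycline and 37.9 and 31.6 FPKM with it, a ratio of 1.85 (log2 difference 0.85, SE 0.21, limma adjusted p = 0.129). GABARAPL1 (GRCh38 chr12:10212458-10223130, plus strand) stood at 11.00 and 14.1 FPKM in untreated cells against 24.4 and 35.6 FPKM after doxycycline, a ratio of 2.39 (1.18, SE 0.26, adjusted p = 0.105). Doxycycline replicate 1 was the higher for MAP1LC3B and replicate 2 for GABARAPL1, so that the ratio of GABARAPL1 to MAP1LC3B FPKM ranged from 0.559 in control replicate 1 to 1.13 in doxycycline replicate 2. GABARAPL2 stood at 15.8 and 14.2 FPKM without doxycycline and 18.95 and 28.3 FPKM with it (0.60, SE 0.25, limma adjusted p = 0.277). GABARAP was listed at 1.17 and 1.09 FPKM in untreated cells against 1.78 and 1.04 FPKM after doxycycline, on 42 to 76 reads and with most of its exon length shared with other genes.

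**Figure D3:**
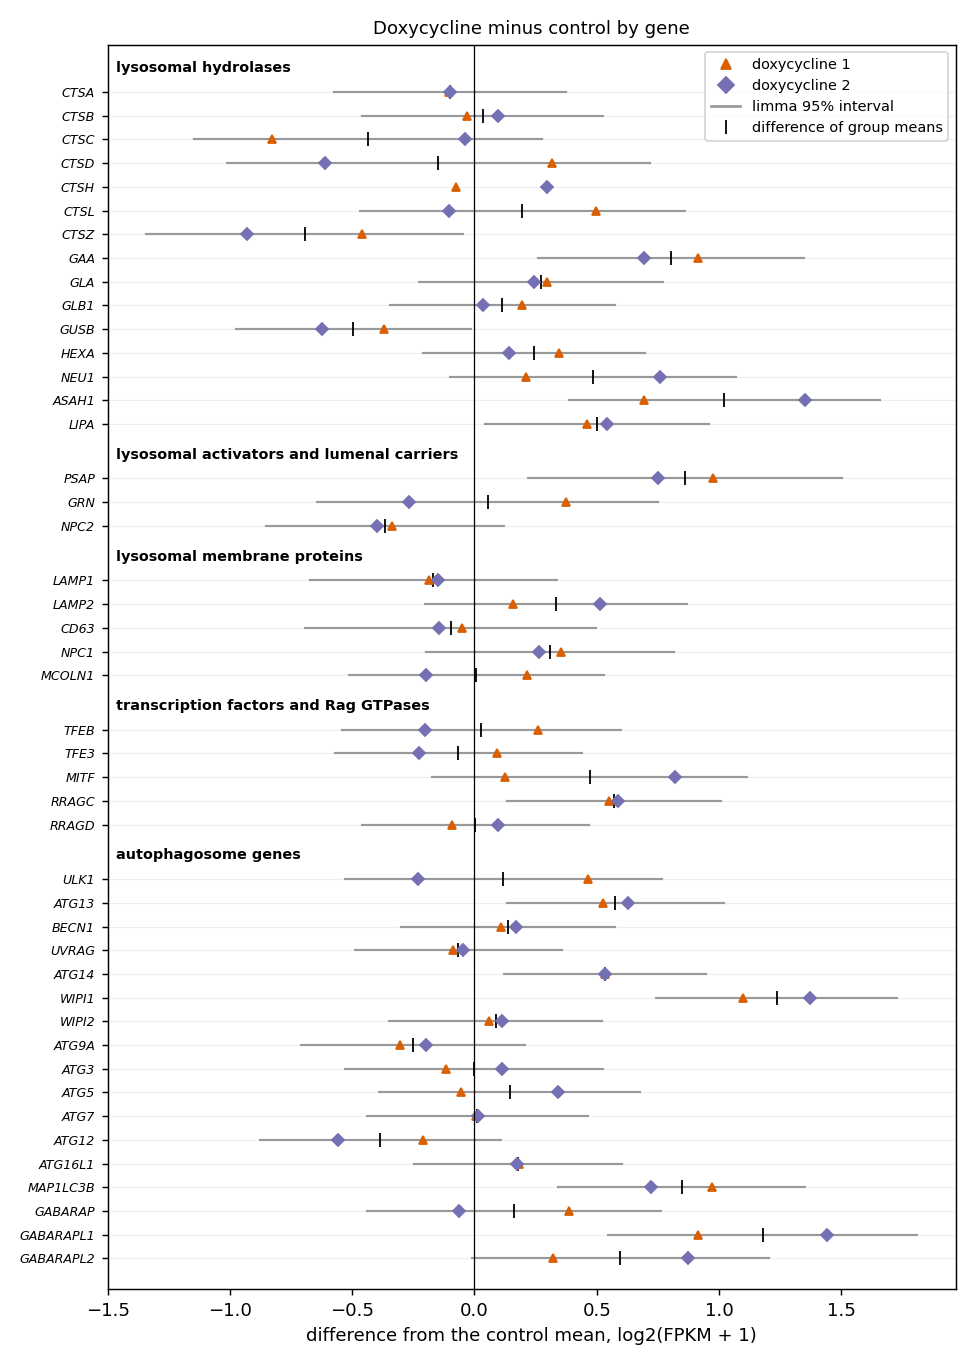
Difference from the control mean on the log2(FPKM + 1) scale for each member: symbols are the 2 doxycycline libraries, the tick is the difference of group means and the line is its limma 95% interval (none for CTSH, which was below the minimum). Intervals of 12 members exclude 0, 10 of them above it, and the symbols lie close together for RRAGC, ATG13 and ATG14 but far apart for CTSD, CTSC and GRN.

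Set side by side, lysosomal and autophagosome genes had similar medians, and medians differed more between roles within each group than between the groups. The 19 kept hydrolases and membrane proteins had a median log2 difference of 0.11 (0.21 in replicate 1 and 0.036 in replicate 2), and the 17 autophagosome genes of 0.14 (0.18 and 0.17). The groups did not overlap, with doxycycline higher, for 9 of 19 and for 9 of 17, and with doxycycline lower for 5 of 19 and 3 of 17, beside 24.3% and 28.9% of all genes. At an unadjusted limma p under 0.05 the counts were 3 higher and 2 lower of 19, and 5 higher and 0 lower of 17, beside 6.47% and 11.9% of all genes. Within the lysosome the median ran from -0.12 for proteases to 0.76 for the 2 lipid hydrolases, and within autophagy from 0.011 for the conjugation enzymes to 0.72 for the ATG8 genes. Without the ATG8 genes the autophagosome median was 0.12. The summed FPKM of the hydrolases and membrane proteins was 864 and 783 in untreated cells and 876 and 715 in treated cells, overlapping. With the 3 lumenal activators and carriers added, PSAP among them, the lysosomal sum was 1618 and 1593 against 2313 and 1913, higher in both. The summed FPKM of the autophagosome genes was 140.4 and 137 against 187 and 204, higher in both. No test was made of these medians and sums. In bulk RNA fewer cells of a kind and less RNA per cell cannot be told apart. Leaving out the members whose exons overlap those of other genes kept 8 hydrolases, with a median of 0.12, and 6 autophagosome genes, with a median of 0.16. The members left out included WIPI1, GABARAPL1, MAP1LC3B, ATG13 and ASAH1. The largest log2 difference among the autophagosome genes was 0.60 after this step and 1.24 before it.

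**Figure D4:**
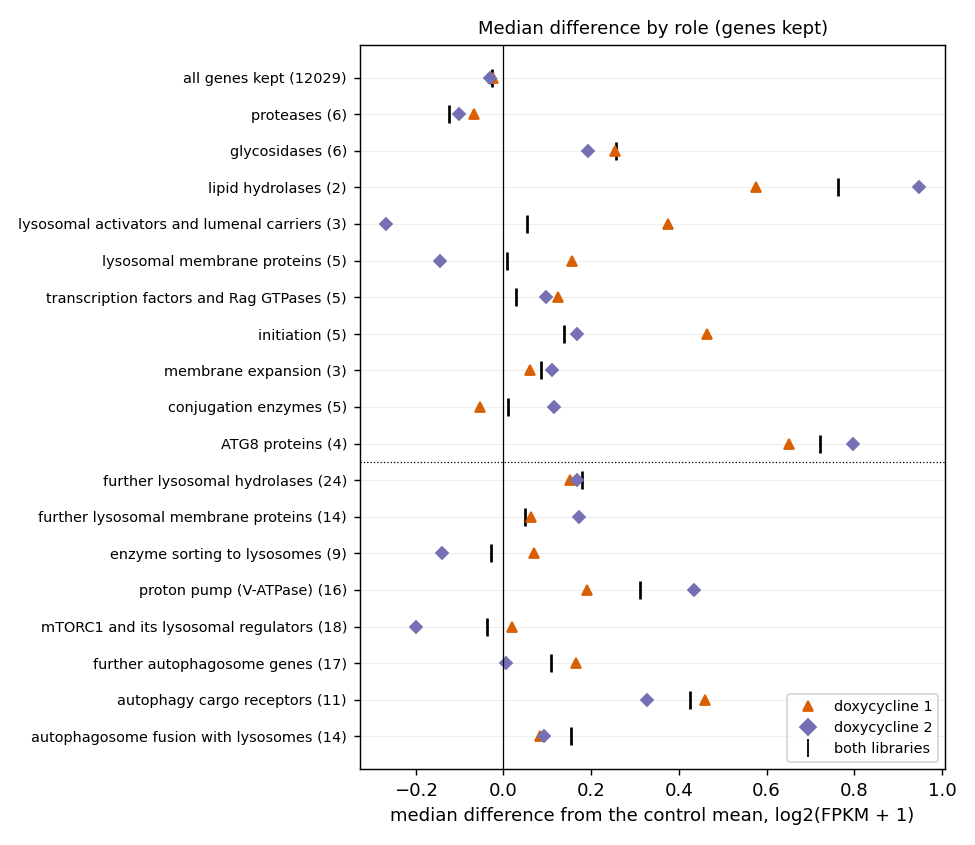
Median log2 difference from the control mean for the roles among the 45 members (above the dotted line) and for further genes of the pathway (below it), with the number of genes kept in parentheses; symbols are the 2 doxycycline libraries and the tick is both together. Lipid hydrolases and ATG8 genes lie farthest right in both libraries, and all genes kept lie at -0.026.

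Further genes of the pathway were read from lists put together by role. Of 134 such genes 123 passed the minimum, and 0 had a limma adjusted p under 0.05. At an unadjusted p under 0.05 there were 13 higher and 1 lower of 123 (6.47% and 11.9% of all genes), and the median log2 difference was 0.13. Of 24 further hydrolases kept, 5 were higher at that level and 0 lower, against the same shares of all genes. CTSO, a cysteine protease, had the lowest p, at 2.43 and 3.03 FPKM without doxycycline and 8.12 and 8.41 FPKM with it (ratio 3.03, limma adjusted p = 0.0573). Its level with doxycycline was above 2 times that of either control. IDS, which degrades heparan and dermatan sulfate, had a log2 difference of 0.66, and LGMN, a lysosomal cysteine protease, had the lowest p among those lower, at -0.37.

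The V-ATPase is the proton pump that acidifies the lysosome. For 9 of its 16 genes both doxycycline libraries lay above both controls and for 1 below (24.3% and 28.9% of all genes), with a median of 0.31 (0.19 in replicate 1 and 0.44 in replicate 2). ATP6V1F stood at 73.3 and 61.2 FPKM in untreated cells against 119.6 and 118 FPKM after doxycycline (adjusted p = 0.158, limma), and ATP6V1E1 had a log2 difference of 0.65, while ATP6V0C and ATP6V0D1 were at -0.24 and -0.15. Of 11 cargo receptors, which tie cargo to ATG8 proteins, 7 lay above both controls in both doxycycline libraries and 1 below, against the same shares, with a median of 0.43. TAX1BP1 and NCOA4, the ferritin receptor, had log2 differences of 0.74 (0.49 in replicate 1 and 0.98 in replicate 2) and 0.91 (0.54 and 1.28). BNIP3, a mitophagy receptor and target of hypoxia signalling, was the receptor lower in both, at 11.9 and 10.8 FPKM without doxycycline and 6.24 and 7.52 FPKM with it (log2 difference -0.65, limma adjusted p = 0.174).

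The remaining lists stood nearer to all genes. Their medians were 0.049 for 14 further membrane proteins (TMEM106B 0.84, SCARB2 0.40, TPCN2 -0.16, CTNS -0.15) and -0.027 for 9 genes that sort enzymes to lysosomes (SORT1 0.28, IGF2R 0.20, GNPTAB -0.49, GGA2 -0.27). They were -0.037 for 18 genes of mTORC1 and its regulators (RRAGB 0.69, LAMTOR5 0.34, RPTOR -0.32, RHEB -0.25) and 0.11 for 17 further autophagosome genes (PIK3C3 0.45, RB1CC1 0.41, ATG2A -0.30, ATG4B -0.28). The 14 genes of fusion with the lysosome had a median of 0.15 (VPS33A 0.30, VPS39 0.28, VPS16 -0.44, VAMP8 -0.27). The values in parentheses are log2 differences of the genes with the lowest p in each direction. Each averages doxycycline libraries that could differ. TMEM106B was at 0.37 in replicate 1 and 1.31 in replicate 2, and SORT1 at -0.022 and 0.59. RRAGB, which like RRAGA pairs with RRAGC or RRAGD, stood at 4.02 and 4.68 FPKM in untreated cells against 7.48 and 7.71 FPKM after doxycycline (limma adjusted p = 0.139), higher in both doxycycline libraries as RRAGC was.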

How the data were processed

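RNA sequencing libraries of 769-P cells, 2 control and 2 doxycycline, were read from a table of FPKM per gene for each library, as deposited by the authors. The submitters' processing notes name HISAT2 (2.0.5), featureCounts (1.5.0-p3) and limma, with no role or order. The strand setting and the genome build are not given in the sources used here; coordinates and lengths of all 58735 genes equalled those of GENCODE 29 (GRCh38). FPKM times length gave whole reads for every value within 0.02 reads, 16319640 to 18764546 per library, and a floor of 3 reads. Wilson intervals of the mitochondrial shares cover counting error only, while the limma intervals rest on the variation between libraries. The library sizes behind the FPKM were 97.2% and 101.0% of these reads in control replicates 1 and 2. They were 107.5% in doxycycline replicate 1 and 97.6% in replicate 2. limma-voom under library totals used the recovered reads instead.

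The 12029 genes averaging 1 FPKM or more were tested with limma 3.58.1 (R 4.3.3) on log2(FPKM + 1), with a mean-variance trend, two-sided, Benjamini-Hochberg adjusted over all genes kept, at 0.05 and with 2 residual degrees of freedom. A fold on this scale understates the change of low genes. The model was also run on simulated libraries with the same spread in both groups. In these data the doxycycline libraries lay farther apart than the controls for 70.5% of all genes. The simulation therefore cannot show how the model performs here. Ratios are of mean FPKM. All 45 members are named; of further pathway genes, those with the lowest p in each direction, at most 2 each way per list, of which 1 is not reported here. The members and all lists were chosen with earlier results of these data known. Promoter windows came from RefSeq (GRCh38.p14), and motifs were counted on both strands. Alternatives were other filters, pseudocounts, scalings and models, and fits without each library.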

Additional observations from a re-analysis of the deposited data

How the results depend on the processing

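Each result was recomputed under 13 alternatives. Of 564 values of single members, 514 kept direction and side of the threshold, 26 newly passed and 24 reversed. Genes passing numbered 0 in the analysis reported, 121 with limma-voom under median-of-ratios library sizes, 261 with a minimum of 5 FPKM (3.77% of genes tested; 1 member, WIPI1), and from 0 to 3942 when 1 library was left out (0 to 15 members). Leaving out doxycycline replicate 1 gave 3942 genes and leaving out replicate 2 gave 1605, while leaving out either control gave 0. The cause was not tested. No label pairs the replicates, which share only a number; with the replicate number as a block, 784 genes (6.52%) and 3 members (ASAH1, WIPI1 and GABARAPL1) passed, and deviations of same-numbered libraries correlated at 0.21 across genes.

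The autophagosome median of 0.14 became 0.21 with limma-voom under library totals, 0.20 under median-of-ratios sizes, 0.20 under quantile normalization, 0.16 with a minimum of 5 FPKM, 0.16 with a pseudocount of 0.1, 0.18 without mitochondrially encoded genes, and 0.13 to 0.19 without 1 library. The median of transcription factors and Rag GTPases, 0.028, became 0.069 and 0.069 with limma-voom under the respective sizes, 0.065 under quantile normalization, 0.24 with a minimum of 5 FPKM, 0.053 without mitochondrially encoded genes, and 0.012 to 0.13 without 1 library. USP35 was lower under every alternative that tested it.

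Of the 44 members tested, 15 reversed under at least 1 alternative. ATG3 became 0.049 and 0.038 with limma-voom under the respective sizes, 0.066 under quantile normalization and 0.039 without mitochondrially encoded genes. Quantile normalization gave 0.033 for LAMP1, 0.030 for CD63 and 0.025 for TFE3. With 1 library left out, the log2 difference ran from -0.20 to 0.19 for ATG3, -0.054 to 0.34 for ATG5, -0.0094 to 0.032 for ATG7, -0.26 to 0.069 for CD63, -0.030 to 0.098 for CTSB, -0.61 to 0.32 for CTSD and -0.11 to 0.50 for CTSL. It ran from -0.064 to 0.39 for GABARAP, -0.27 to 0.37 for GRN, -0.20 to 0.21 for MCOLN1, -0.11 to 0.11 for RRAGD, -0.23 to 0.093 for TFE3, -0.20 to 0.26 for TFEB and -0.23 to 0.46 for ULK1.

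Depth was lowest for 2 members: GABARAP rested on 42 to 76 reads per library and CTSH on 47 to 97, against a median over members of 1065.5. With 2 libraries a group the intervals are wide: for ATG7, whose libraries nearly coincided, the 95% interval of the log2 difference ran from -0.44 to 0.46.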
